A study of Mus musculus with 4514 samples.

Results

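Gene expression was read in single diploid nuclei of hepatocytes, the parenchymal cells of the liver, from mice at postnatal day 9 (P9) and at birth (P0). The nuclei were taken by their labels as all those sorted as 2N at these ages, which gave 75 P9 nuclei (67 with at least 20000 counts and 8 with fewer) and, at P0, 97 nuclei with at least 20000 counts and 10 with fewer, together 4.03% of the 4514 samples of the series. Both groups came from mice of the genotype Alb-Cre; Rosa-tdTomato and carry no labelled treatment. Alb-Cre places the Cre recombinase under the albumin promoter, so that the red reporter marks cells of the hepatocyte lineage. Hepatocytes were collected by flow sorting and broken open with a homogenizer, and the released nuclei were stained for DNA and sorted 1 by 1. The label 2N is the DNA content of the nucleus, and it does not say whether the cell held 1 nucleus or more. Whole hepatocytes of the same genotype, 1069 over 7 ages of which 13.8% were P9 and 10.9% P0 cells, were sequenced with the same chemistry (mSTRT-seq, a well-based method with a barcode for each cell) and are set beside the nuclei. No label names an animal, a litter or a sex. The nuclei of an age therefore count as 1 sample, and every difference between P9 and P0 is given as a value without a test.

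Around birth the liver stops being a site of blood formation and takes up the handling of nutrients from milk, a fat-rich diet, over the first days of life. Afp (alpha-fetoprotein, a fetal serum protein) and H19 (a noncoding RNA expressed from the maternal allele) are the textbook marks of the immature hepatocyte and are silenced after birth. RNA in a nucleus includes transcripts still being made or spliced, whereas the RNA of a whole cell is dominated by finished messenger RNA in the cytoplasm, which can outlast its transcription. Levels below are means over nuclei of CPM, the counts of each nucleus scaled to a total of 1000000 with spike-ins left out, and log2 ratios are P9 over P0 with 1 CPM added to both levels.

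P9 nuclei held 2466 to 474987 counts (median 96615) and P0 nuclei 7995 to 275734 (median 71051), with a median of 3216 detected genes at P9 and 3211 at P0. No 2 nuclei of either age had identical counts. Of the 10 hepatocyte markers, 9 passed the minimum level, and together they took 1.08 to 10.9% of the counts of a P9 nucleus (median 2.07%) and 1.17 to 15.8% of a P0 nucleus (median 4.25%). The tenth, Trf (transferrin), was listed at 0 in every nucleus although it averaged 16283 CPM in P9 cells and 14475 CPM in P0 cells. Trf overlaps another annotated gene, and this was common: of 89 genes at 0 in all 2N nuclei with at least 50 CPM in cells, 83.1% overlapped another annotated gene, against 33.4% of all 2261 genes at that level. A gene listed at 0 in the nuclei was therefore not read as absent. Markers of other cells were scarce. The whole macrophage list summed to at most 0.0291% of the counts of any P9 nucleus and 0.0246% of any P0 nucleus, the endothelial list to at most 0.0768% at P9 and 0.0911% at P0, and the lymphocyte and neutrophil list to at most 0.021% at P9 and 0.0805% at P0. The stellate list reached 0.277% at P9 and 0.327% at P0, and the cholangiocyte list 0.193% at P9 and 0.651% at P0. Haemoglobin RNA reached 0.0756% in the highest P9 nucleus and 0.307% in the highest P0 nucleus. The whole erythroid list, which includes Tfrc, reached 0.508% at P9 and 0.31% at P0.

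Of 8023 genes at a mean of at least 10 CPM and seen in at least 10 nuclei, 1592 (19.8%) were at least 2-fold higher in P9 nuclei and 1714 (21.4%) at least 2-fold lower. Genes that overlap in the annotation, and families with near-identical members, cannot be told apart where reads were shared between them.

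The nuclei of each age fell into 2 sets by the share of ERCC spike-ins, RNA of known amount added to each well, and the sets stood apart in gene levels. Of the P9 nuclei, 11 held 8.77 to 43.4% spike-in counts (high-spike) and 64 held 1.06 to 8.14% (low-spike). Of the P0 nuclei, 75 held 5.9 to 40.5% (high-spike) and 32 held at most 0.0308% (low-spike). Each set is an unbroken run of numbers in the labels, and no label names a batch. At P0, 16.2% of the 8023 genes were at least 2-fold higher and 18.9% lower in the high-spike than in the low-spike nuclei, and at P9 the shares were 19% and 43.9%. High-spike nuclei made up 14.7% of the P9 nuclei and 70.1% of the P0 nuclei, so a mean over all nuclei mixes age with set. The low-spike nuclei of both ages differed in their share too and are not known to be 1 batch.

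P9 was therefore also set against P0 within each set. Of the 1592 higher genes, 61.1% were at least 2-fold higher within the high-spike nuclei (23.4% of all genes were), 70.2% within the low-spike nuclei (21.2%), and 630 within both (8.66%). Of the 1714 lower genes, 80.2% were at least 2-fold lower within the high-spike nuclei (44.6% of all genes were), 74.8% within the low-spike nuclei (24.2%), and 978 within both (14.6%). These nuclei also make up the overall means, so the shares describe the genes and are no independent check. The median log2 ratio of all genes was -0.06 over all nuclei, -0.62 within the high-spike and -0.11 within the low-spike nuclei, and the high-spike values rest on 11 P9 nuclei. A gene named below as past 2-fold in nuclei was so within both sets as well, unless its values within the sets, or the count of its list there, are given beside it.

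Scaling to the spike-ins could not be read over all nuclei, since 32 P0 nuclei held almost none. It put 89.1% of the genes past 2-fold on the higher side, against 48.2% with CPM. Within the high-spike nuclei, 4.5 counts of mouse genes stood against each spike-in count at P9 and 6.04 at P0. Scaled to them there, 25.4% of the genes past 2-fold were on the higher side, against 34.4% with CPM, and the median of all genes was -1.12. Every ratio given here is relative to the total RNA counted.

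**Figure D1:**
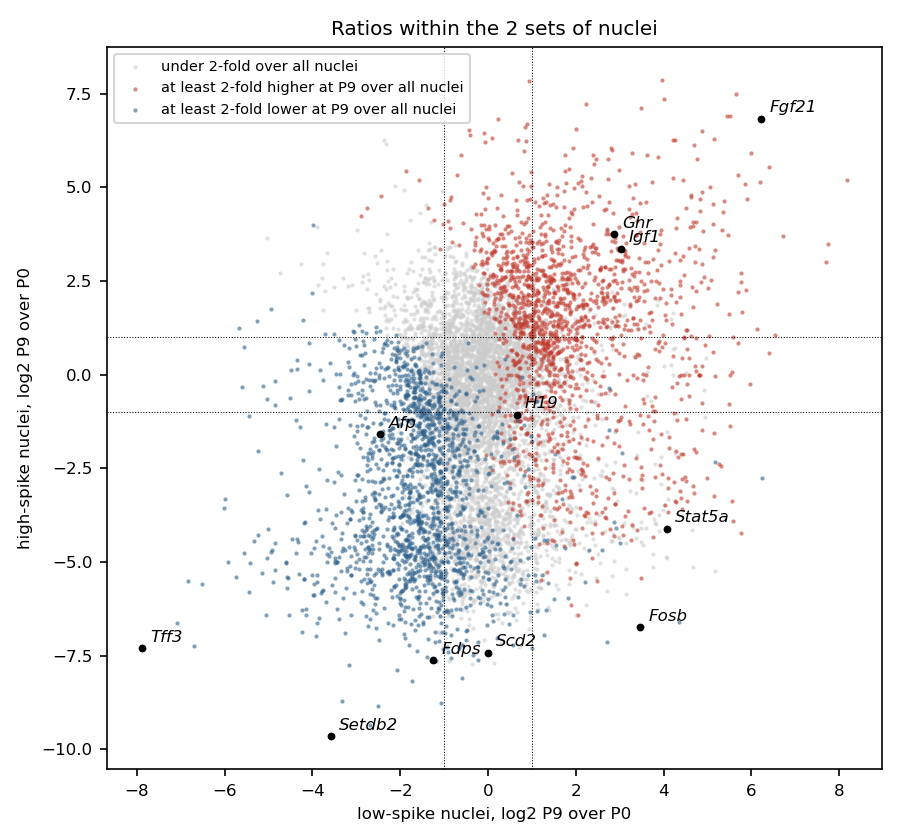
Each point is 1 of the 8023 genes, with its log2 ratio of mean CPM (P9 over P0) within the low-spike nuclei on the x axis and within the high-spike nuclei on the y axis, and dotted lines at 2-fold. Colours give the call over all nuclei: 630 of the 1592 higher genes (red) are past 2-fold within both sets and so are 978 of the 1714 lower genes (blue), while Stat5a and Fosb lie on opposite sides of 0 in the 2 sets.

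Genes past 2-fold in nuclei were past 2-fold in the same direction in whole cells more often than all genes were, in both directions. Of the 1592 higher genes, 499 (31.3%) were also at least 2-fold higher in P9 cells, where 12.2% of all 8023 genes were, and 26 were at least 2-fold lower there. Of the 1714 lower genes, 13.1% were at least 2-fold lower in P9 cells, where 5.07% of all genes were, and 74 were at least 2-fold higher. Counting any difference, 77.6% of the higher genes had higher levels in P9 cells (59% of all genes did) and 60.3% of the lower genes had lower levels (40.6% of all genes did). Of the 630 genes higher within both sets of nuclei 42.1% were at least 2-fold higher in P9 cells, and of the 978 lower ones 15.2% were at least 2-fold lower. Most genes past 2-fold in nuclei stayed under 2-fold in cells, 67.02% of the higher and 82.6% of the lower. Across the 8023 genes the log2 ratios of nuclei and cells had a Pearson r of 0.440 and a Spearman rho of 0.370, a description over genes, which are not replicates. Few of these genes went past 2-fold in cells after P9. Of the 1714 lower ones, 7.70% were at least 2-fold lower in cells at P18 than at P9 (5.41% of all genes were), and of the 1592 higher ones 6.28% were at least 2-fold higher at P18 than at P9 (3.71% of all genes were). Tetraploid (4N) nuclei of the same ages, 21 at P9 and 12 at P0, gave the same direction for 81.3% of the higher genes (51% of all genes were higher there) and 74.6% of the lower genes (48.7% of all genes were lower there). The 4N nuclei and the 2N nuclei of P18 and P60 also pool wells that differ in their share of spike-ins. So do the P0 cells, of which 39 held at least 2.18% and 77 at most 1.11%, and 10.9% of the 8023 genes were at least 2-fold apart between them.

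**Figure D2:**
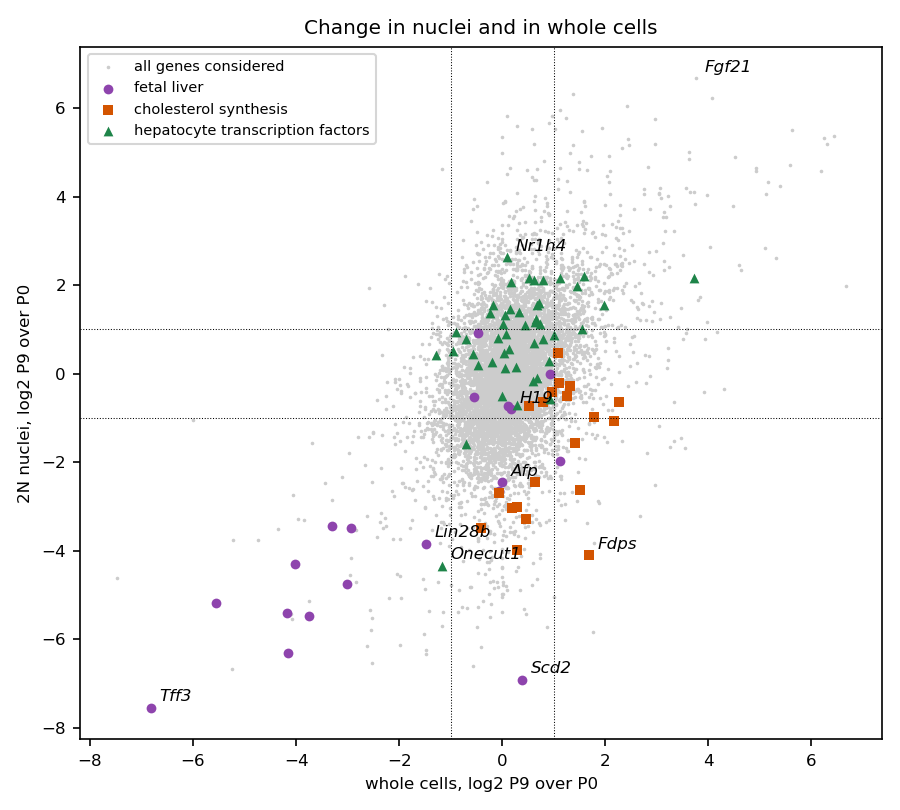
Each point is 1 gene, with its log2 ratio of mean CPM (P9 over P0) in whole cells on the x axis and in 2N nuclei on the y axis, and dotted lines at 2-fold. Most fetal liver genes lie at the lower left, while Afp and Scd2 are low in P9 nuclei but near 0 in cells (Scd2 was counted in high-spike P0 nuclei only), and cholesterol synthesis genes lie mostly at the lower right, with a median of -1.31 in nuclei and 1.02 in cells.

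Afp was lower in P9 nuclei, at 1082 CPM in P9 nuclei and 5925 CPM in P0 nuclei, a log2 ratio of -2.45, while whole cells held 10647 CPM at P9 and 10658 CPM at P0 (log2 0.00). The gene spans chr5:90490737-90508907 on the plus strand of GRCm38. Its level ran between 0 and 10668 CPM (median 317.9) over the P9 nuclei and between 439 and 28326 CPM (median 5239.6) over the P0 nuclei. Within the high-spike nuclei Afp averaged 2109.6 CPM at P9 and 6327 CPM at P0, and within the low-spike nuclei 905 CPM at P9 and 4982 CPM at P0. Of the P9 nuclei, 44 of 75 lay below the lowest P0 nucleus, so the groups were shifted apart but overlapped. Afp was counted in 90.7% of P9 nuclei and 100% of P0 nuclei. In whole cells at P0, P3, P6, P9, P12, P15 and P18 it averaged 10658, 15801, 11166, 10647, 3228, 179.1 and 104.2 CPM, and in 2N nuclei at P18 and P60 it averaged 18 and 11.4 CPM. The level in nuclei was thus more than 2-fold below that at P0 by P9, and the level in cells by P12. The log2 ratio was -1.58 within the high-spike and -2.46 within the low-spike nuclei, and P9 cells had log2 ratios of 0.02 against the P0 cells of high and -0.01 against those of low spike-in share. In 4N nuclei Afp stood at 612 CPM at P9 and 3614 CPM at P0.

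For H19 the sets went opposite ways. Over all nuclei it averaged 972 CPM in P9 nuclei and 1688 CPM in P0 nuclei (log2 -0.80). Within the high-spike nuclei it averaged 1024 CPM at P9 and 2147 CPM at P0, and within the low-spike nuclei 963 CPM at P9 and 612 CPM at P0, log2 ratios of -1.07 within the high-spike and 0.65 within the low-spike nuclei. Its level ran between 0 and 4933 CPM (median 675) over the P9 nuclei and between 0 and 9208 CPM (median 1035) over the P0 nuclei, and the groups overlapped through most of their range. The gene spans chr7:142575529-142578143 on the minus strand. Whole cells held 2198 CPM at P9 and 1946 CPM at P0, with log2 ratios of -0.35 against the P0 cells of high and 0.54 against those of low spike-in share. No direction of H19 by P9 can be given from these nuclei. Later 2N nuclei held 88.8 CPM at P18 and 3.21 CPM at P60.

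**Figure D3:**
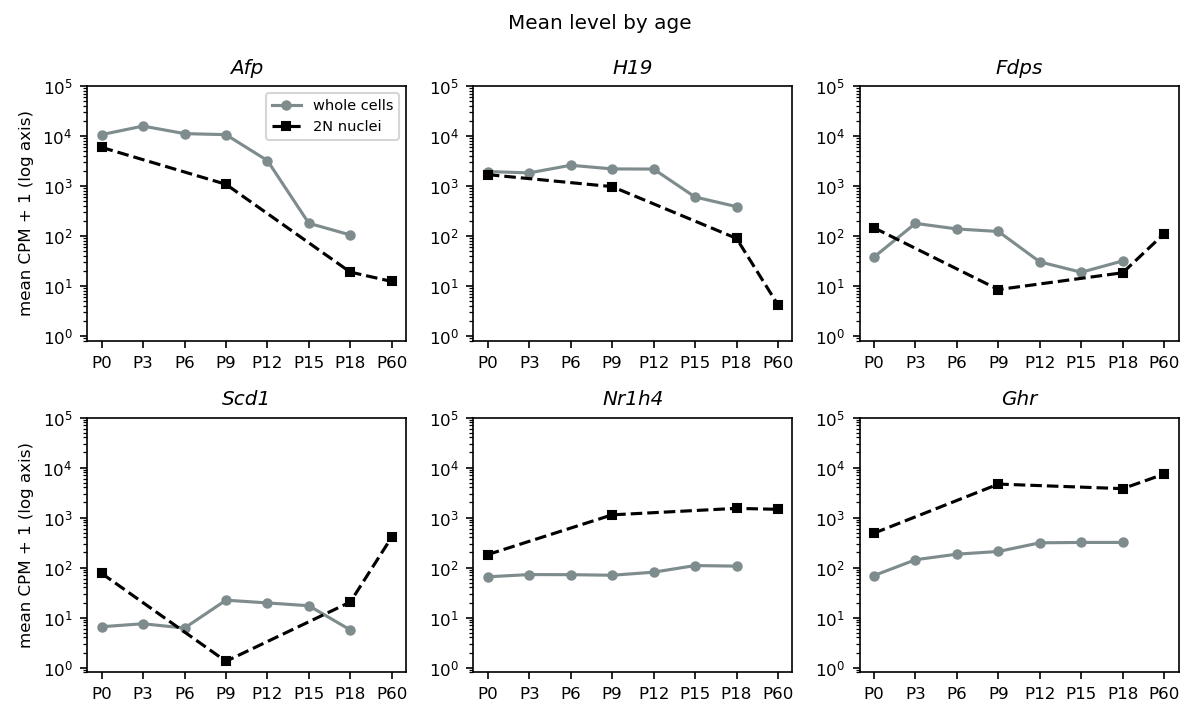
Mean CPM plus 1 on a log axis for 6 genes at each age sampled, with ages evenly spaced, in whole cells (grey circles, P0 to P18) and 2N nuclei (black squares, P0, P9, P18 and P60). Afp is at 1082 CPM in nuclei and 10647 CPM in cells at P9, and Ghr is higher at P9 than at P0 in both.

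The promoter of Afp is printed because the gene was lower in P9 nuclei and not in P9 cells, and those of Fgf21 and Hamp because they are the first genes of both ends of the ranking with a promoter entry. Each is the 250 bases before the RefSeq transcription start on GRCm38.p6, read on the gene's own strand, which is plus for Afp (chr5:90490464-90490713) and minus for Fgf21 (chr7:45615491-45615740) and Hamp (chr7:30944030-30944279). The TATAAA box was searched on both strands, as were the CCAAT box, the GTTAAT site and the E-box CACGTG. Every match is in capitals, and a match on the other strand shows as its reverse complement.
Afp: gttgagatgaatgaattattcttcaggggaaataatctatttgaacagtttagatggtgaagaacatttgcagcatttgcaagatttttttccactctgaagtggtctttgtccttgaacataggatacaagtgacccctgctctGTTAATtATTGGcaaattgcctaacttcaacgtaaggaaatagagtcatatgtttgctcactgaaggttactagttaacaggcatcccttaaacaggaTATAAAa
Fgf21: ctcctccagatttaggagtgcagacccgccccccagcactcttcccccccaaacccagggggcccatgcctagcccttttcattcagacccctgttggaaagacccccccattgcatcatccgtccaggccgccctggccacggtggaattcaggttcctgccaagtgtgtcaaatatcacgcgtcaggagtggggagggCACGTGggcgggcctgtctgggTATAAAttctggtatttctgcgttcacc
Hamp: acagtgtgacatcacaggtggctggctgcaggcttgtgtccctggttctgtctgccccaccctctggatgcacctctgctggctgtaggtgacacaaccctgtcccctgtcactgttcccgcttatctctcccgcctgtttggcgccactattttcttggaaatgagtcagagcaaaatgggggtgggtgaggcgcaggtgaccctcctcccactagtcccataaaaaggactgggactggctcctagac
Afp held the TATAAA box and the GTTAAT site, and the CCAAT box on the other strand. Fgf21 held the TATAAA box and the E-box, and none of the motifs was found in the Hamp window. Among 32851 RefSeq promoters of this length, 12.4% held TATAAA, 33.8% CCAAT, 6.43% GTTAAT and 6.02% CACGTG. These matches describe the letters only.

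Most other fetal liver genes were lower in P9 nuclei as well. Of 22 genes listed, 19 passed the minimum level, and 0 were at least 2-fold higher and 14 at least 2-fold lower in P9 nuclei (0% and 73.7%, against 19.8% and 21.4% of all genes). Within both sets 0 were higher and 12 lower (0% and 63.2%, against 8.66% and 14.6% of all genes). The median log2 ratio of the list was -3.50 in nuclei and -1.48 in cells, against -0.06 and 0.14 over all genes. Tff3 (trefoil factor 3, a small secreted peptide) had the lowest ratio among genes with a mean of at least 50 CPM that were seen in at least 25% of the nuclei of the higher group, at 1.01 CPM in P9 nuclei and 374 CPM in P0 nuclei. It was counted in 9.33% of P9 nuclei and 83.2% of P0 nuclei, and no P9 nucleus exceeded 14.2 CPM, where the P0 median was 234.1 CPM. Some members rested on 1 set. Scd2, the stearoyl-CoA desaturase of the fetal liver, had 0 counts in P9 nuclei of either set and 1187 counts in P0 nuclei, all of them in high-spike nuclei. It was counted in 49.3% of the high-spike P0 nuclei, at a mean of 170.3 CPM, and 3 counts over the high-spike P9 nuclei would correspond to 3.31 CPM. In the low-spike nuclei it was at 0 at both ages, so no ratio can be given there. In cells Scd2 was low at both ages, at 1.03 CPM at P9 and 0.545 CPM at P0. There 3 counts over the group would correspond to 0.105 CPM at P9 and 0.129 CPM at P0. Dlk1, an imprinted membrane protein of growing tissue, had 1 count at P9 and averaged 29.4 CPM in high-spike P0 nuclei but 0 CPM in low-spike P0 nuclei. Slc36a2, an amino acid transporter, had 1 count at P9, against a P0 mean of 87.1 CPM, and averaged 85.5 CPM in high-spike and 90.8 CPM in low-spike P0 nuclei. The summed P0 level of Slc36a2 was 661 times as high (counting interval 118.2 to 26125). Tmsb10, an actin-binding peptide, stood at 0.56 CPM in P9 nuclei and 68.2 CPM in P0 nuclei. The imprinted growth genes as a group moved less. Of 25 listed, 13 passed the minimum level, and 0 were at least 2-fold higher and 4 at least 2-fold lower, with a median log2 -0.14. The shares were 0% and 30.8%, against 19.8% and 21.4% of all genes. Within both sets 0 were higher and 0 lower (8.66% and 14.6% of all genes were).

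**Figure D4:**
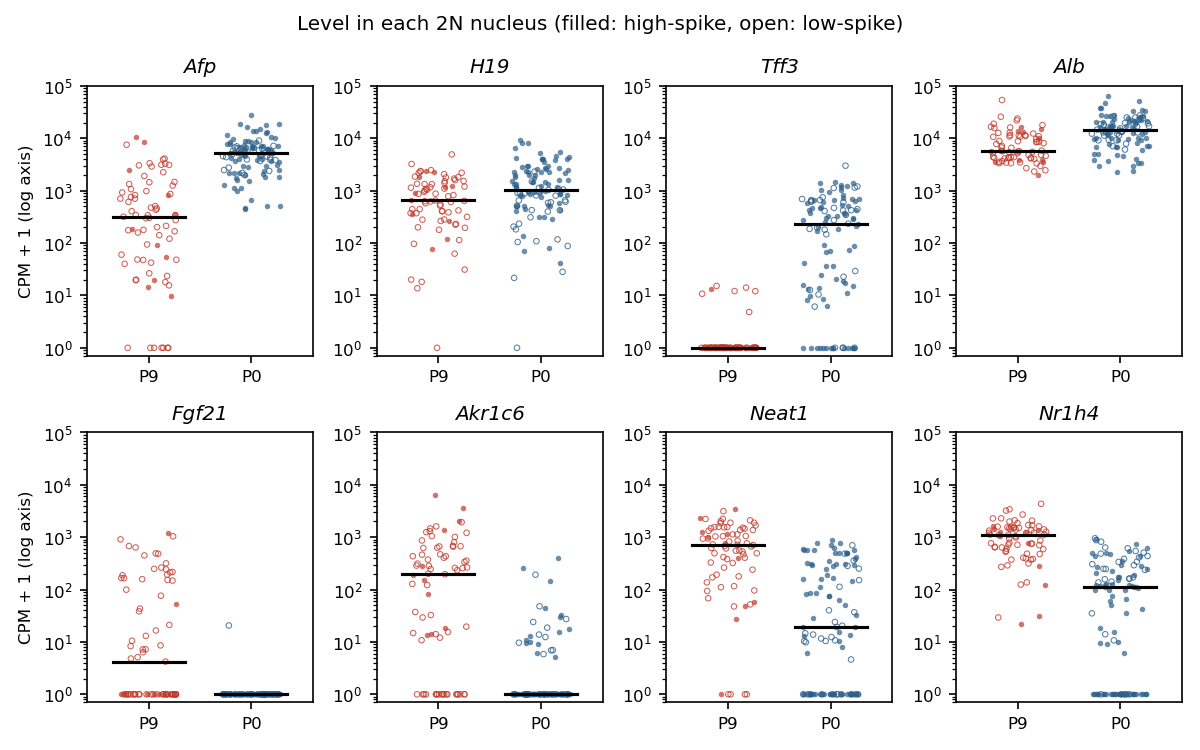
CPM plus 1 of 8 genes in each 2N nucleus on a log axis, with P9 left of P0, filled points for high-spike and open points for low-spike nuclei, and the black line at the median of all nuclei of the age. Tff3 is at 0 in most P9 nuclei and Fgf21 in all but 1 P0 nucleus, while H19 and Alb overlap over most of their range, and the high-spike P0 nuclei have the higher H19 levels.

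By the same minimum, the 15 genes with the highest ratios lay between 4.98 and 6.67 on the log2 scale. They included Fgf21, Slc17a4, Sult2a5, Pde7b, Sult2a1, Cyp2a22, Slc22a27, Gm20319, 2810007J24Rik, Akr1c6, Tymp, Acss3, C4bp and Hsd17b6, of which Gm20319, Tymp and Acss3 overlap another annotated gene. Fgf21, a hormone of the fat-burning liver, was counted in 50.7% of P9 nuclei and 0.935% of P0 nuclei, and 27 P9 nuclei exceeded the single P0 nucleus with a count. With 976 counts at P9 and 1 at P0 the summed level was 1039 times as high at P9 (counting interval 186.01 to 41072). Its level ran from 0 to 1193 CPM among P9 nuclei. Fgf21 was counted in 18.2% of the high-spike and 56.2% of the low-spike P9 nuclei, so its high-spike ratio rests on few nuclei. Also among the 15 was Slc17a4, an organic anion carrier, at 271.6 CPM in P9 nuclei and 2.64 CPM in P0 nuclei. So were enzymes that conjugate or reduce steroids. Sult2a1, a sulfotransferase, averaged 259.3 CPM in P9 nuclei and 3.58 CPM in P0 nuclei, and Akr1c6, a hydroxysteroid dehydrogenase, averaged 492 CPM in P9 nuclei and 12.6 CPM in P0 nuclei. Akr1c6 ran between 0 and 6508 CPM (median 200.2) over the P9 nuclei and between 0 and 399 CPM (median 0) over the P0 nuclei. Cyp2a22, a cytochrome P450, was counted in 96% of P9 nuclei and 14% of P0 nuclei. The 4N nuclei were at least 2-fold higher at P9 for all 15 (28.8% of all genes were), and whole cells for 13 (12.2% of all genes were). Sult2a1 and Tymp were under 2-fold in cells, at log2 0.97 and 0.62. Within both sets of nuclei 14 of the 15 were at least 2-fold higher at P9 (8.66% of all genes were). The other was Tymp, at -1.03 within the high-spike and 4.25 within the low-spike nuclei.

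The 15 lowest were Tff3, Scd2, Hamp, Il16, Zfp827, Ccbe1, Ppp1r3g, Wnt4, Phf11c, Setdb2, Serpina1e, Prex2, Erdr1, Map2 and Gab2, with log2 ratios from -7.55 to -4.13. Hamp, Il16, Ccbe1, Ppp1r3g and Map2 overlap another annotated gene. Hamp encodes hepcidin, the hormone that limits iron uptake, and was counted in 6.67% of P9 nuclei and 58.9% of P0 nuclei, with 0.878 CPM in P9 nuclei and 189.3 CPM in P0 nuclei. In cells at P0, P3, P6, P9 and P12 it averaged 544, 1022, 270.6, 13.4 and 8.9 CPM. In later 2N nuclei it averaged 304.1 CPM at P18 and 607 CPM at P60, both above the P9 level. Setdb2, of the histone methyltransferase family, ran between 0 and 657 CPM (median 0) over the P9 nuclei and between 0 and 6097 CPM (median 1225) over the P0 nuclei, and the P0 sets differed, with a median of 1492 CPM in the high-spike and 119.7 CPM in the low-spike P0 nuclei. Within the high-spike nuclei it averaged 1.14 CPM at P9 and 1724 CPM at P0, and within the low-spike nuclei 46.6 CPM at P9 and 571 CPM at P0. In cells Setdb2 averaged only 7.67 CPM at P9 and 38.9 CPM at P0. Serpina1e, one of the alpha-1-antitrypsin genes, ran between 0 and 1361 CPM (median 24.1) over the P9 nuclei and between 71.3 and 10728 CPM (median 2021) over the P0 nuclei, with 47 of 75 P9 nuclei below the lowest P0 nucleus, and cells were lower too (1434 CPM at P9 and 11146 CPM at P0). Ppp1r3g, which brings a phosphatase to glycogen, stood at 7.05 CPM in P9 nuclei and 476 CPM in P0 nuclei, with log2 ratios of -9.36 within the high-spike and -2.68 within the low-spike nuclei. Wnt4, a secreted ligand, stood at 1.43 CPM in P9 nuclei and 111.9 CPM in P0 nuclei, but in 4N nuclei it had 13.3 CPM at P9 and 12.2 CPM at P0. Of the 15, 13 were at least 2-fold lower in P9 4N nuclei (26% of all genes were) and 8 in P9 cells (5.07% of all genes were). Within both sets of nuclei 14 of the 15 were at least 2-fold lower at P9 (14.6% of all genes were), and Scd2 is the other.

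Genes that encode hepatocyte transcription factors were higher in P9 nuclei much more often than lower. Of 55 listed, 47 passed the minimum level, and 23 were at least 2-fold higher and 2 at least 2-fold lower (48.9% and 4.26%, against 19.8% and 21.4% of all genes), with a median log2 0.94 in nuclei. Among the high-spike nuclei 19 were higher and 8 lower (40.4% and 17%, against 23.4% and 44.6% of all genes). Among the low-spike nuclei 23 were higher and 4 lower (48.9% and 8.51%, against 21.2% and 24.2% of all genes). Within both sets 11 were higher and 1 lower (23.4% and 2.13%, against 8.66% and 14.6% of all genes). Scaled to spike-ins within the high-spike nuclei, 11 were higher and 10 lower. Of all 8012 genes counted there, 1409 were higher and 4144 lower. In P9 cells 6 of the 47 were at least 2-fold higher and 2 lower (median 0.28) (12.8% and 4.26%, against 12.2% and 5.07% of all genes). Nr1h4 (FXR, the bile acid receptor) averaged 1131 CPM in P9 nuclei and 181.1 CPM in P0 nuclei, a log2 ratio of 2.64, and ran between 20.7 and 4339 CPM (median 1092) over the P9 nuclei and between 0 and 954 CPM (median 108.9) over the P0 nuclei. Of the P9 nuclei, 41 of 75 were above every P0 nucleus. In cells Nr1h4 averaged 69.1 CPM at P9 and 64.3 CPM at P0 (log2 0.10), and 2N nuclei at P18 and P60 held 1524 and 1458 CPM. Esrrg, an orphan nuclear receptor, averaged 1028 CPM in P9 nuclei and 223.5 CPM in P0 nuclei, and Nr1h3 (LXR alpha, a sterol receptor) 24.8 CPM in P9 nuclei and 4.76 CPM in P0 nuclei, although both overlap another annotated gene. Ppara, the receptor that turns on fatty acid oxidation, averaged 3419.7 CPM in P9 nuclei and 1569.9 CPM in P0 nuclei (log2 1.12, 1.10 within the high-spike and 0.95 within the low-spike nuclei), and its ratio in cells was 0.02. Onecut1 (HNF6, a factor of early hepatocyte and bile duct development) was lower instead, with 1 count at P9 and a mean of 27.7 CPM at P0, a summed P0 level 254.6 times as high (counting interval 45.3 to 10094), and cells held 19.2 CPM at P9 and 44.1 CPM at P0. The members of this list are long, with a median span of 67.8 kb against 32.2 kb over all genes, and 30 of the 47 overlap another gene. Of the 17 that overlap none, 9 were at least 2-fold higher and 1 lower.

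Span moved with the ratio in nuclei. Of 5 equal classes of genes ordered by span, the class with the shortest spans (median 6.75 kb) had a median log2 ratio of -0.45, and 15.2% of it were at least 2-fold higher and 31.4% lower at P9. In the class with the longest spans (median 142.7 kb) the median ratio was 0.35, with 27.2% higher and 14.1% lower. Among the high-spike nuclei these classes had medians of -1.25 and -0.10, and within the low-spike nuclei -0.49 and 0.35. In whole cells the same classes had medians of -0.02 and 0.31. The part of gene span in the list results was not tested.

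Growth hormone acts on the liver through its receptor and the STAT5 proteins, which drive Igf1. Of 20 genes of this axis, 17 passed the minimum level, and 7 were at least 2-fold higher and 2 at least 2-fold lower (41.2% and 11.8%, against 19.8% and 21.4% of all genes), with a median log2 0.82 in nuclei and 1.02 in cells. Among the high-spike nuclei 4 were higher and 6 lower (23.5% and 35.3%, against 23.4% and 44.6% of all genes). The median there was -0.34, against -0.62 over all genes. Among the low-spike nuclei 8 were higher and 1 lower (47.1% and 5.88%, against 21.2% and 24.2% of all genes). The median there was 0.92, against -0.11 over all genes. Within both sets 3 were higher and 0 lower (17.6% and 0%, against 8.66% and 14.6% of all genes). Ghr, the growth hormone receptor, averaged 4662 CPM in P9 nuclei and 486 CPM in P0 nuclei (log2 3.26). It ran between 368 and 11917 CPM (median 4461) over the P9 nuclei and between 0 and 1904 CPM (median 346) over the P0 nuclei, and 67 of 75 P9 nuclei were above every P0 nucleus, so the groups hardly overlapped. In cells at P0, P3, P6 and P9 Ghr averaged 68.1, 142.3, 184.03 and 208.6 CPM. Prlr, the prolactin receptor, averaged 1012 CPM in P9 nuclei and 59.4 CPM in P0 nuclei. Stat5a, which overlaps Stat3, had 97.8 CPM in P9 nuclei and 13.2 CPM in P0 nuclei, but log2 ratios of -4.11 within the high-spike and 4.08 within the low-spike nuclei. Igf1, the growth factor secreted by hepatocytes, averaged 1021 CPM in P9 nuclei and 139.8 CPM in P0 nuclei, and 345 CPM in P9 cells and 20.1 CPM in P0 cells. Igfbp1, a binding protein for it, was lower over all nuclei, at 878 CPM in P9 nuclei and 2443 CPM in P0 nuclei, with log2 ratios of -1.65 within the high-spike and 0.14 within the low-spike nuclei. Igf2r, which clears IGF2 and overlaps the antisense RNA Airn, was lower in P9 nuclei (log2 -1.66, -0.95 within the high-spike and -1.92 within the low-spike nuclei) but higher in P9 cells (log2 1.19).

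Bile acid genes, which make, carry or sense bile acids, were higher in P9 nuclei more often than lower. Of 22 listed, 20 passed the minimum level, and 10 were at least 2-fold higher and 2 at least 2-fold lower (50% and 10%, against 19.8% and 21.4% of all genes), with a median log2 0.65 in nuclei and 0.31 in cells. Within both sets 5 were higher and 2 lower (25% and 10%, against 8.66% and 14.6% of all genes). Scaled to spike-ins within the high-spike nuclei 8 were higher and 6 lower, where 1409 of all 8012 genes were higher and 4144 lower. Akr1c6, described above, had the highest ratio of the list. Slco1b2, a carrier that takes bile acids and drugs up from blood, averaged 2033 CPM in P9 nuclei and 220.8 CPM in P0 nuclei, and 38 of 75 P9 nuclei were above every P0 nucleus. Slco1a1, a related carrier, averaged 159.9 CPM in P9 nuclei and 13.1 CPM in P0 nuclei. The pumps Abcb11 and Abcc2 did not pass 2-fold. Abcb11, which exports bile salts into bile, averaged 1614 CPM in P9 nuclei and 1873 CPM in P0 nuclei, and Abcc2, which exports conjugates, 1679 CPM in P9 nuclei and 1483 CPM in P0 nuclei. Cyp7a1, the rate-limiting enzyme of bile acid synthesis, was lower at 27.4 CPM in P9 nuclei (log2 -2.51 against P0 nuclei), and was counted in 14.7% of P9 nuclei and 47.7% of P0 nuclei.

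Drug-metabolising enzymes were higher more often than lower, in both nuclei and cells. Of 38 listed, 29 passed the minimum level, and 15 were at least 2-fold higher and 5 at least 2-fold lower in P9 nuclei (51.7% and 17.2%, against 19.8% and 21.4% of all genes), with a median log2 1.04. Within both sets 9 were higher and 1 lower (31% and 3.45%, against 8.66% and 14.6% of all genes). Scaled to spike-ins within the high-spike nuclei 10 were higher and 7 lower, where 1409 of all 8012 genes were higher and 4144 lower. In P9 cells 17 of the 29 were at least 2-fold higher and 6 lower (median 1.40, and 58.6% and 20.7%, against 12.2% and 5.07% of all genes). Ugt3a2 and Ugt2b36, which attach sugars to lipophilic compounds, had log2 ratios of 4.90 and 4.65 in nuclei and 4.52 and 4.93 in cells. Cyp2b9, a cytochrome P450, averaged 3763 CPM in P9 nuclei and 203.6 CPM in P0 nuclei, with 41 of 75 P9 nuclei above every P0 nucleus. It stood at 1241 CPM in nuclei at P18 and 24.2 CPM at P60. Cyp2b9, with Cyp2b13, Sult2a1 and the repressor Cux2, belongs to the genes that are higher in adult female than in adult male mouse liver. Of 11 such genes 5 passed the minimum level, and 4 were at least 2-fold higher and 0 at least 2-fold lower (80% and 0%, against 19.8% and 21.4% of all genes). Within both sets 3 of the 5 were higher and 0 lower (60% and 0%, against 8.66% and 14.6% of all genes). Cux2 had log2 ratios of 0.07 within the high-spike and 2.27 within the low-spike nuclei. The sexes of the mice are not labelled. Counts of Y-linked genes were found in 96% of P9 nuclei and 99.1% of P0 nuclei, and Uty, on the Y chromosome, averaged 339.9 CPM in P9 nuclei and 320.97 CPM in P0 nuclei, with log2 ratios of -1.31 within the high-spike and 0.16 within the low-spike nuclei. Gstm1 and Gstp1, glutathione transferases, were lower in P9 nuclei (log2 -3.35 and -3.84) and higher in P9 cells (log2 0.85 and 1.78). The ratio of Gstp1 was -4.43 within the high-spike and -0.09 within the low-spike nuclei, and it averaged 0.611 CPM at P9 and 0.719 CPM at P0 in the low-spike nuclei.

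**Figure D5:**
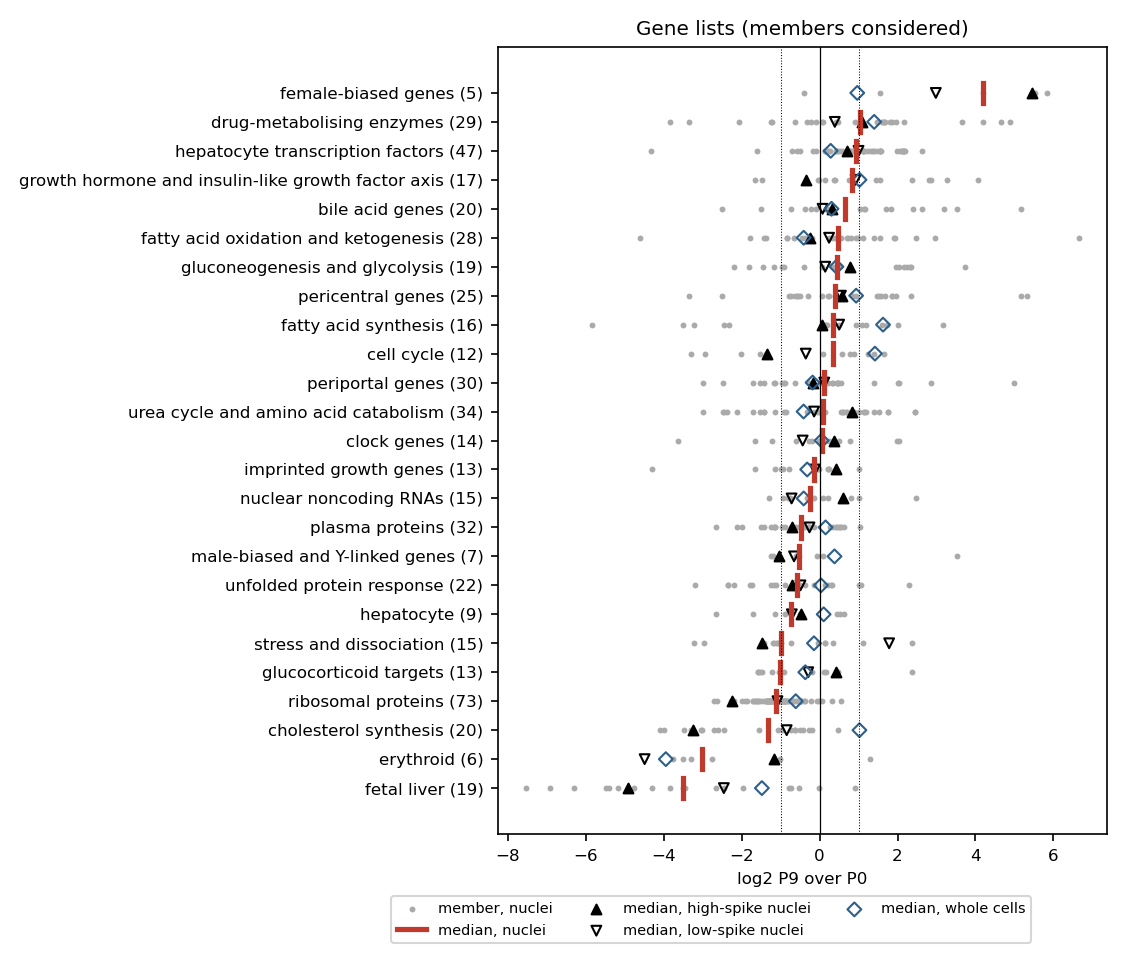
Log2 ratios (P9 over P0) of the members of each gene list with at least 5 members considered, in 2N nuclei (grey points), with the median in nuclei (red bar), in the high-spike nuclei (filled triangle), in the low-spike nuclei (open triangle) and in whole cells (blue diamond), and dotted lines at 2-fold. Fetal liver genes have a median of -3.50 in nuclei and hepatocyte transcription factors 0.94, and the medians of the stress list lie on opposite sides of 0 in the 2 sets.

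Cholesterol synthesis genes stood low in P9 nuclei and high in P9 cells. Of 24 listed, 20 passed the minimum level, and 0 were at least 2-fold higher and 11 at least 2-fold lower in P9 nuclei (0% and 55%, against 19.8% and 21.4% of all genes, median log2 -1.31), whereas in P9 cells 10 of the 20 were at least 2-fold higher and 0 lower (median 1.02, and 50% and 0%, against 12.2% and 5.07% of all genes). In the high-spike nuclei 0 were higher and 16 lower (0% and 80%, against 23.4% and 44.6% of all genes). Among the low-spike nuclei 2 were higher and 8 lower (10% and 40%, against 21.2% and 24.2% of all genes). Within both sets 0 were higher and 7 lower (0% and 35%, against 8.66% and 14.6% of all genes). Fdps, which makes farnesyl pyrophosphate, averaged 7.51 CPM in P9 nuclei and 144.97 CPM in P0 nuclei (log2 -4.10), and was counted in 9.33% of P9 nuclei and 54.2% of P0 nuclei. Most of its P0 level came from the high-spike nuclei: within them it averaged 0 CPM at P9 and 197.3 CPM at P0, and within the low-spike nuclei 8.81 CPM at P9 and 22.2 CPM at P0. At 20000 counts per nucleus it was seen in 5.97% of P9 nuclei (95% interval 1.65 to 14.6%) and 40.2% of P0 nuclei (30.4 to 50.7%), exact binomial intervals for counting error only. In cells at P0, P3, P6, P9, P12, P15 and P18 Fdps averaged 37.1, 178.1, 137.5, 122.4, 29.4, 17.9 and 30.8 CPM. Cells were above the P0 level from P3 to P9 and below it from P12. Sqle, which makes the first oxygenated sterol precursor, averaged 2.58 CPM in P9 nuclei and 55.7 CPM in P0 nuclei, counted in 2.67% of P9 nuclei and 32.7% of P0 nuclei, while cells held 50.4 CPM at P9 and 40.9 CPM at P0. Hsd17b7, a later enzyme of the pathway, had a log2 ratio of -3.49 in nuclei and -0.40 in cells. Hmgcs1, the enzyme that feeds the pathway, stayed under 2-fold over all nuclei (log2 -0.50, -1.96 within the high-spike and 1.09 within the low-spike nuclei) and was over 2-fold higher in P9 cells (log2 1.27). In the few 4N nuclei 7 of the same 20 genes were at least 2-fold lower and 3 higher (26% of all genes were lower and 28.8% higher). The median there was -0.36, against 0.04 over all genes, and Fdps stood at 13.3 CPM at P9 and 17.6 CPM at P0. Fdps and 5 other members overlap another annotated gene.

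Fatty acid synthesis was split. Of 18 genes listed, 16 passed the minimum level, and 6 were at least 2-fold higher and 5 at least 2-fold lower in P9 nuclei (37.5% and 31.2%, against 19.8% and 21.4% of all genes). Within both sets 4 were higher and 4 lower (25% and 25%, against 8.66% and 14.6% of all genes). In P9 cells 9 of the 16 were at least 2-fold higher and 3 lower (56.2% and 18.8%, against 12.2% and 5.07% of all genes). Scd1, the adult stearoyl-CoA desaturase, was counted in 4% of P9 nuclei and 43% of P0 nuclei, with 4 counts at P9 and 710 at P0, means of 0.335 CPM at P9 and 75.5 CPM at P0. At P0 it averaged 103.5 CPM in high-spike and 9.88 CPM in low-spike nuclei. In cells it averaged 21.2 CPM at P9 and 5.56 CPM at P0. In 2N nuclei it reached 405 CPM at P60. Fasn, fatty acid synthase, averaged 5.37 CPM in P9 nuclei and 58.1 CPM in P0 nuclei, and 44 CPM in P9 cells and 6.07 CPM in P0 cells, but in 4N nuclei its log2 ratio was 0.59. Lpin1, which acts in fat synthesis and as a coactivator, was lower in nuclei (log2 -3.50) and in cells (-1.19). Fads2 and Elovl5, which desaturate and lengthen dietary polyunsaturated fatty acids, were higher in nuclei (log2 3.16 and 1.61) and in cells (1.93 and 1.67).

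Fatty acid oxidation and ketogenesis genes were considered in 28 of 34 cases, and 8 were at least 2-fold higher and 4 at least 2-fold lower in P9 nuclei (28.6% and 14.3%, against 19.8% and 21.4% of all genes), with a median log2 0.47. Within both sets 4 were higher and 7 lower (14.3% and 25%, against 8.66% and 14.6% of all genes), so no direction of the list is read from the nuclei. In P9 cells 3 of the 28 were at least 2-fold higher and 8 lower (10.7% and 28.6%, against 12.2% and 5.07% of all genes), with a median of -0.41. Bdh1, which makes the ketone body hydroxybutyrate, averaged 607 CPM in P9 nuclei and 107.9 CPM in P0 nuclei, and Cyp4a31, of the omega-oxidising P450 family, 399 CPM in P9 nuclei and 50.2 CPM in P0 nuclei. Acot1, a thioesterase induced by fasting, had 1 count at P9 and averaged 27.6 CPM in P0 nuclei, and in cells it averaged 1.6 CPM at P9 and 462 CPM at P0.

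For sugar metabolism, 19 of 24 genes passed the minimum level, and 7 were at least 2-fold higher and 4 at least 2-fold lower (36.8% and 21.1%, against 19.8% and 21.4% of all genes). Within both sets 4 were higher and 1 lower (21.1% and 5.26%, against 8.66% and 14.6% of all genes). Gckr, a regulator of sugar metabolism, averaged 1096 CPM in P9 nuclei and 220.3 CPM in P0 nuclei. Khk, which phosphorylates fructose, averaged 154.9 CPM in P9 nuclei and 29.7 CPM in P0 nuclei, with log2 ratios of 5.38 within the high-spike and 0.55 within the low-spike nuclei. Pck1, the rate-limiting enzyme of gluconeogenesis, stayed under 2-fold over all nuclei (log2 0.47, 1.49 within the high-spike and 0.48 within the low-spike nuclei). Among 34 considered genes of the urea cycle and amino acid catabolism, 10 were at least 2-fold higher and 10 lower in P9 nuclei (29.4% and 29.4%, against 19.8% and 21.4% of all genes). In the high-spike nuclei 16 were higher and 5 lower (47.1% and 14.7%, against 23.4% and 44.6% of all genes). Among the low-spike nuclei 7 were higher and 12 lower (20.6% and 35.3%, against 21.2% and 24.2% of all genes). Otc, the ornithine transcarbamylase of the urea cycle, was higher, at 425 CPM in P9 nuclei and 76.6 CPM in P0 nuclei. Asl and Cps1, other enzymes of that cycle, were lower, Asl at 240.9 CPM in P9 nuclei and 1350.2 CPM in P0 nuclei and Cps1 at 1419 CPM in P9 nuclei and 4639.7 CPM in P0 nuclei. Within the sets the ratios of Asl were -0.71 within the high-spike and -3.03 within the low-spike nuclei, and those of Cps1 -0.48 within the high-spike and -1.41 within the low-spike nuclei. Cps1 ran between 0 and 12307 CPM (median 808) over the P9 nuclei and between 16.7 and 10803 CPM (median 4773) over the P0 nuclei. Cells had the same directions, with log2 ratios of 2.02 for Otc, -1.94 for Asl and -1.19 for Cps1. Cps1 stood at 4144 CPM in nuclei at P18.

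By place in the lobule, 25 of 39 pericentral and 30 of 34 periportal genes passed the minimum level. Of the pericentral genes 10 were at least 2-fold higher and 2 lower (40% and 8%, against 19.8% and 21.4% of all genes), and of the periportal genes 5 were higher and 7 lower (16.7% and 23.3%). In the high-spike nuclei 10 pericentral genes were higher and 9 lower (40% and 36%), and 10 periportal genes higher and 7 lower (33.3% and 23.3%). Of all genes 23.4% were higher and 44.6% lower there. Within the low-spike nuclei the counts were 10 and 3 for pericentral (40% and 12%) and 5 and 9 for periportal genes (16.7% and 30%). Of all genes 21.2% were higher and 24.2% lower there. In each set the pericentral list thus had a larger higher share and a smaller lower share than all genes. The periportal list had this only in the high-spike nuclei. Lgr5, a Wnt co-receptor of cells around the central vein, was counted in 24% of P9 nuclei and 0.935% of P0 nuclei, with 53 CPM in P9 nuclei and 0.504 CPM in P0 nuclei. Cyp2e1, a pericentral P450, averaged 440.1 CPM in P9 nuclei and 121.5 CPM in P0 nuclei.

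Plasma protein genes were at least 2-fold higher in P9 nuclei less often than all genes were, and the share that was lower was near that of all genes. Of 32 considered, 1 was at least 2-fold higher and 9 at least 2-fold lower (3.12% and 28.1%, against 19.8% and 21.4% of all genes), with a median log2 -0.48, and 1 was higher and 6 lower within both sets (3.12% and 18.8%, against 8.66% and 14.6% of all genes). Within the high-spike nuclei 6.25% were higher and 46.9% lower, against 23.4% and 44.6% of all genes. Within the low-spike nuclei 6.25% were higher and 21.9% lower, against 21.2% and 24.2% of all genes. In P9 cells 7 of the 32 were at least 2-fold higher and 2 lower (21.9% and 6.25%, against 12.2% and 5.07% of all genes), with a median of 0.15. Alb, albumin, averaged 8803 CPM in P9 nuclei and 16378 CPM in P0 nuclei (log2 -0.90, -1.01 within the high-spike and -0.80 within the low-spike nuclei), and ran between 2001 and 53847 CPM (median 5785) over the P9 nuclei and between 2258 and 63831 CPM (median 14751) over the P0 nuclei. The fibrinogen genes went further, with log2 ratios of -2.66 for Fgb, -2.13 for Fgg and -1.98 for Fga in nuclei and -1.44, -1.34 and -0.76 in cells. Fgb averaged 447 CPM at P9 and 6223 CPM at P0 within the high-spike and 994 CPM at P9 and 4762 CPM at P0 within the low-spike nuclei.

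Ribosomal protein genes, which are short (median span 3.24 kb), were lower in P9 nuclei for 42 of 73 considered and higher for 0, with a median log2 -1.12 (0% and 57.5%, against 19.8% and 21.4% of all genes). Within both sets 0 were higher and 26 lower (0% and 35.6%, against 8.66% and 14.6% of all genes). In P9 cells 0 of the 73 were at least 2-fold higher and 4 lower (0% and 5.48%, against 12.2% and 5.07% of all genes). The lower share in cells was thus near that of all genes. Rpl30 averaged 28.7 CPM in P9 nuclei and 182.3 CPM in P0 nuclei but 767 CPM in P9 cells and 769.7 CPM in P0 cells. Genes of the unfolded protein response had 3 higher and 9 lower of 22 considered (13.6% and 40.9%, against 19.8% and 21.4% of all genes). Within both sets 0 were higher and 3 lower (0% and 13.6%, against 8.66% and 14.6% of all genes), so the lower share there was near that of all genes. Hspa5, the main chaperone of the endoplasmic reticulum, was lower, at 37.7 CPM in P9 nuclei and 353 CPM in P0 nuclei, with cells at 885 CPM at P9 and 1535 CPM at P0. Ddit3, a stress-induced factor, had 105.5 CPM in P9 nuclei and 20.6 CPM in P0 nuclei but log2 ratios of -0.58 within the high-spike and 4.59 within the low-spike nuclei. Glucocorticoid targets had 1 higher and 7 lower of 13 considered over all nuclei (7.69% and 53.8%, against 19.8% and 21.4% of all genes). Among the high-spike nuclei 3 were higher and 5 lower (23.1% and 38.5%, against 23.4% and 44.6% of all genes). Among the low-spike nuclei 1 was higher and 2 lower (7.69% and 15.4%, against 21.2% and 24.2% of all genes). The lower share was thus below that of all genes within each set. Mt1, a metallothionein, averaged 940.2 CPM in P9 nuclei and 2800.2 CPM in P0 nuclei and 251.8 CPM in P9 cells and 3252 CPM in P0 cells, with ratios in nuclei of -4.57 within the high-spike and -0.47 within the low-spike nuclei. Zbtb16, a zinc finger factor, had 261.9 CPM in P9 nuclei and 786 CPM in P0 nuclei, with ratios of -4.49 within the high-spike and -0.29 within the low-spike nuclei. Genes that respond to stress and cell isolation had 2 higher and 7 lower of 15 considered over all nuclei (13.3% and 46.7%, against 19.8% and 21.4% of all genes). The sets went opposite ways. Among the high-spike nuclei 1 was higher and 9 lower (6.67% and 60%, against 23.4% and 44.6% of all genes). Among the low-spike nuclei 9 were higher and 1 lower (60% and 6.67%, against 21.2% and 24.2% of all genes). Fosb had log2 ratios of -6.75 within the high-spike and 3.48 within the low-spike nuclei, and Jun of -0.33 within the high-spike and 4.20 within the low-spike nuclei. Within both sets Gadd45b was lower (log2 -3.22 over all nuclei) and Dusp1 higher (2.38). The list summed to 0 to 0.755% of the counts of a P9 nucleus (median 0.134%) and 0 to 0.892% of a P0 nucleus (median 0.101%), and its part in the other results was not tested.

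Among noncoding RNAs held in the nucleus, Neat1, the scaffold of paraspeckles, was higher at P9, at 873 CPM in P9 nuclei and 156.7 CPM in P0 nuclei (log2 2.47). It ran between 0 and 3487 CPM (median 708) over the P9 nuclei and between 0 and 897 CPM (median 18.3) over the P0 nuclei, with 31 of 75 P9 nuclei above every P0 nucleus. Nuclei at P18 and P60 held 2226 and 4151 CPM, while cells held 39.3 CPM at P9 and 33.9 CPM at P0. Malat1, its neighbour on chromosome 19, stayed under 2-fold over all nuclei, at 22137 CPM in P9 nuclei and 38757 CPM in P0 nuclei, with log2 ratios of 0.12 within the high-spike and -0.73 within the low-spike nuclei. Of the 15 RNAs considered, 1 was at least 2-fold higher and 1 lower (6.67% and 6.67%, against 19.8% and 21.4% of all genes). Of 14 clock genes, 2 were at least 2-fold higher and 3 lower (14.3% and 21.4%, against 19.8% and 21.4% of all genes). The lower ones were Cry1, Cry2 and Per1, of which Cry1 was lower within both sets, and the hours of collection are not labelled. Of 43 cell cycle genes in the tables only 12 passed the minimum level. Of these 3 were at least 2-fold higher and 5 lower in P9 nuclei (25% and 41.7%, against 19.8% and 21.4% of all genes). Within both sets 0 were higher and 3 lower (0% and 25%, against 8.66% and 14.6% of all genes). In P9 cells 9 of the 12 were at least 2-fold higher and 0 lower (75% and 0%, against 12.2% and 5.07% of all genes). The list summed to at most 0.14% of the counts of a P9 nucleus and 0.268% of a P0 nucleus. Birc5, of the dividing spindle, averaged 17.4 CPM in P9 nuclei and 4.85 CPM in P0 nuclei (log2 ratios of -0.16 within the high-spike and 3.18 within the low-spike nuclei) and 75.7 CPM in P9 cells and 4.52 CPM in P0 cells.

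Of 17 erythroid genes listed only 6 passed the minimum level, most of them globin genes. At P9, 5 of the 6 were at least 2-fold lower in nuclei (83.3%, against 21.4% of all genes). Within both sets 3 were lower (50%, against 14.6% of all genes), and in cells 4 (66.7%, against 5.07% of all genes). Hbb-bs, a beta globin, averaged 23.8 CPM in P9 nuclei and 244.3 CPM in P0 nuclei and was counted in 49.3% of P9 nuclei and 34.6% of P0 nuclei. Its level was mostly that of the low-spike P0 nuclei, with log2 ratios of -0.18 within the high-spike and -4.84 within the low-spike nuclei. Tfrc, the transferrin receptor, which hepatocytes also express, was higher (log2 1.29). S100a8, a neutrophil protein, averaged 3.94 CPM in P9 nuclei and 54.3 CPM in P0 nuclei and was counted in 24% of P9 nuclei and 31.8% of P0 nuclei, and whole cells had the same direction (log2 -2.32). The part of RNA from other cells in the results was not tested. No nucleus of either age had more than 1% of its counts in haemoglobin genes.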

How the data were processed

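Single nuclei and single cells were measured by mSTRT-seq. Per the labels' protocols, nuclei of flow-sorted hepatocytes were released in a buffer with 0.1% Triton X-100, and their cDNA was amplified in 4 and then 16 cycles. The authors deposited raw counts, whole numbers per gene symbol, as 1 table of nuclei and 1 of cells. The builds GRCm38 and mm10 appear in the submitters' processing notes. So do, without role or order, featureCounts 1.5.3 and 2.0.0, UMI-tools 0.5.0, HTSeq 0.6.0, Trimmomatic 0.39, HISAT2 2.1.0, SAMtools 1.3.1, Bowtie2, TopHat2 2.1.0 and TopHat. The sources used here do not say whether counts are reads or molecules, or whether strand was used. Intervals and floors therefore cover counting error only.

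Each nucleus or cell was scaled to a total of 1000000 (CPM) without the 92 ERCC entries, and levels are means over the nuclei or cells of a group (Python 3.11.15, numpy 2.4.6, pandas 2.3.3, scipy 1.17.1). Ratios are log2((P9 + 1)/(P0 + 1)). Genes at a mean of the 2 group levels of at least 10 CPM and with a count in at least 10 nuclei were considered, and 25 names turned into dates by a spreadsheet were left out. A gene was counted as higher or lower at a ratio of at least 2-fold. No label names an animal, so nuclei were not treated as replicates, no test was made and no p-value is given. Shares of nuclei are given over all nuclei, which differ in depth, except where 20000 counts per nucleus are named. Thinning to that depth left 67 P9 nuclei and 97 P0 nuclei, and the thinned shares carry exact 95% binomial intervals. Gene spans and overlaps came from GENCODE M21, and promoters from RefSeq on GRCm38.p6, where 19 of the 30 genes at both ends had an entry. Columns of the series that were not used number 2787. No doublet caller was run, because each well received 1 sorted nucleus or picked cell.

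Genes named are the 15 highest and 15 lowest ratios among genes with a mean of at least 50 CPM and a count in at least 25% of the nuclei of the higher group, Afp and H19, per list up to 4 members with the largest ratio in size and up to 2 with the highest level, and 5 genes in each direction that went past 2-fold the other way in cells. Clock genes that were lower were also named to complete a count. Some genes that the rule takes are not reported here. The members, the gene lists and the rules were chosen with earlier results of these data known. Alternatives were summed counts, TMM scaling (edgeR 4.0.16, R 4.3.3), scaling without the most abundant genes or to spike-ins, other pseudocounts and minimum levels, a minimum of 10000 counts, thinning, a limit on haemoglobin, 4N nuclei and a trimmed mean. Leaving out overlapping genes, the comparison of P18 with P9 cells, the split by gene span and the sets by spike-in share were chosen after seeing the data. The sets part P9 nuclei at 8.5% and P0 nuclei at 1% of counts in ERCC entries, and P0 cells at 1.5%. No label names a batch. The counting code was tested on simulated data.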

Additional observations from a re-analysis of the deposited data

Results flagged for a closer look

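The difference in direction between nuclei and whole cells caught the eye for 10 genes, taken as the largest ratios in nuclei among the 19 genes that were at least 2-fold higher in P9 nuclei and lower in P9 cells, and the 42 genes with the reverse. This difference was not tested, since each age is 1 sample in either assay.

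5 genes were higher in P9 nuclei and lower in P9 cells. Adck5, a mitochondrial kinase-like gene that overlaps Cpsf1, had 57.4 CPM in P9 nuclei and 12.2 CPM in P0 nuclei (log2 2.14), with 12.8 CPM in P9 cells and 28.9 CPM in P0 cells (log2 -1.12). Krt23, a keratin, had 61.3 CPM in P9 nuclei and 14.4 CPM in P0 nuclei (log2 2.02), with 18.9 CPM in P9 cells and 60.7 CPM in P0 cells (log2 -1.63). Zfp672, a zinc finger gene, had 32.3 CPM in P9 nuclei and 7.75 CPM in P0 nuclei (log2 1.93), with 14.7 CPM in P9 cells and 40.1 CPM in P0 cells (log2 -1.39). Cyp4a10, a P450 that oxidises fatty acids, of a family with near-identical members, had 266.2 CPM in P9 nuclei and 69.5 CPM in P0 nuclei (log2 1.92), with 192.4 CPM in P9 cells and 1154 CPM in P0 cells (log2 -2.58). Ankrd27, a regulator of endosome traffic, had 95.6 CPM in P9 nuclei and 30.2 CPM in P0 nuclei (log2 1.63), with 11.1 CPM in P9 cells and 32.7 CPM in P0 cells (log2 -1.48). Adck5 had log2 ratios of 0.11 within the high-spike and 1.92 within the low-spike nuclei, Krt23 of 3.65 within the high-spike and 0.87 within the low-spike nuclei, and Zfp672 of -1.43 within the high-spike and 0.76 within the low-spike nuclei, while Cyp4a10 and Ankrd27 were at least 2-fold higher at P9 within both sets. Cyp4a10 was counted in only 9.09% of the high-spike P9 nuclei and Ankrd27 in 36.4%, so the ratios within that set rest on few nuclei. In 4N nuclei Zfp672 had a log2 ratio of -2.01, and Adck5 of 0.29.

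5 genes were lower in P9 nuclei and higher in P9 cells. Scd1, the stearoyl-CoA desaturase, had 0.335 CPM in P9 nuclei and 75.5 CPM in P0 nuclei (log2 -5.84), with 21.2 CPM in P9 cells and 5.56 CPM in P0 cells (log2 1.76). Fdps, the farnesyl pyrophosphate synthase, had 7.51 CPM in P9 nuclei and 144.97 CPM in P0 nuclei (log2 -4.10), with 122.4 CPM in P9 cells and 37.1 CPM in P0 cells (log2 1.69). Gstp1, a glutathione transferase, had 0.591 CPM in P9 nuclei and 21.7 CPM in P0 nuclei (log2 -3.84), with 104.5 CPM in P9 cells and 29.7 CPM in P0 cells (log2 1.78). BC048546, a gene given by its identifier only, had 1.67 CPM in P9 nuclei and 26.6 CPM in P0 nuclei (log2 -3.37), with 64.9 CPM in P9 cells and 20.1 CPM in P0 cells (log2 1.64). Marcks, a substrate of protein kinase C, had 2.19 CPM in P9 nuclei and 30.4 CPM in P0 nuclei (log2 -3.30), with 19.7 CPM in P9 cells and 7.87 CPM in P0 cells (log2 1.23). Gstp1 had log2 ratios of -4.43 within the high-spike and -0.09 within the low-spike nuclei, BC048546 of -5.23 within the high-spike and -0.51 within the low-spike nuclei, and Fdps of -7.63 within the high-spike and -1.24 within the low-spike nuclei, while Scd1 and Marcks were at least 2-fold lower at P9 within both sets. In 4N nuclei all 5 were lower at P9, Fdps by less than 2-fold (log2 -0.38).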

How the results depend on the processing

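The count of genes at least 2-fold higher in P9 nuclei was 1592, that of lower genes 1714, and 2268 of these went the same way in whole cells. Within the high-spike nuclei 3577 genes were lower, and 4144 when these nuclei were scaled to spike-ins. Scaled to spike-ins over all nuclei, which cannot be read because 32 P0 nuclei held almost none, the 3 counts were 4681, 571 and 3576. With a minimum of 50 CPM they were 743, 669 and 1071, and with any count above 0 2945, 3613 and 3786. In 4N nuclei 944 genes were lower and 1393 went the same way in cells, over nuclei trimmed by 20% at each end 964 were higher, and without overlapping genes 936 were higher and 1440 went the same way. The sets of nuclei and the overlapping genes were chosen as alternatives after seeing the data. Counts not given here, and all 3 under low-spike nuclei, summed counts, TMM, leaving out the most abundant genes, pseudocounts of 0.1 and 10 CPM, a minimum of 2 CPM, nuclei of at least 10000 counts, thinning and the haemoglobin limit, stayed within 1.5 times. These are totals, and the genes behind them changed. A pseudocount of 0.1 CPM kept all of the 1592 higher genes, TMM 1333, thinning 1312, summed counts 1280 and the low-spike nuclei 1118. The trimmed mean shared 670 of them and the 4N nuclei 557, where 3582 and 4595 genes were considered. Of 1897 values of the genes printed in the text, 22 turned their direction, in 15 genes, counting genes past 2-fold over all nuclei. In the high-spike nuclei the log2 ratio became -0.16 for Birc5, -0.58 for Ddit3, -0.33 for Jun, -4.11 for Stat5a, -1.03 for Tymp and -1.43 for Zfp672. With these nuclei scaled to spike-ins it became -0.59, -1.01, -0.999, -4.68, -0.43 and -1.27 for the same genes, -0.77 for Cux2 and -0.0948 for Cyp2e1. Within the low-spike nuclei it became 0.17 for Dlk1, 3.48 for Fosb and 0.14 for Igfbp1. In 4N nuclei it became 1.68 for Cry1, 0.59 for Fasn, 0.12 for Wnt4 and -2.01 for Zfp672, and scaled to spike-ins over all nuclei 0.34 for Igf2r. Printed genes under 2-fold over all nuclei are not counted. Of these H19 (0.37), Alb (0.18) and Malat1 (0.36) turned with that scaling, and Abcb11, Abcc2, Hmgcs1 and Uty under it or others. The cause was not tested. The gene filters, and leaving out overlapping genes, by themselves leave the value of a named gene as it is, and the haemoglobin limit removed no nucleus. Under these settings no value could turn, so 22 of 1897 is no measure of how stable the directions are.

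No paired analysis was possible because each age is 1 sample, the labels tie no nucleus to an animal, and no test was made. Leaving out a replicate was not possible for the same reason. Depth limits the low genes: 3 counts over the group, the floor used here, correspond to 0.352 CPM at P9 and 0.331 CPM at P0, and 8 P9 nuclei and 10 P0 nuclei had too few counts for the thinned shares.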
